A study of Homo sapiens with 12 samples.

Results

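The genes described here encode the machinery that brings nuclear-encoded proteins into mitochondria, measured by RNA-seq in MOLM-13, a human acute myeloid leukemia cell line that carries the activating FLT3-ITD mutation. A list of 38 genes was set by function: the receptors and small subunits of the outer membrane translocase (TOM), the sorting and assembly machinery (SAM), the small TIM chaperones with the disulfide relay, the TIM22 and TIM23 translocases of the inner membrane, the import motor, and the processing peptidase. Of the 38, 37 had a row in the count table, and 34 were abundant enough to be tested among 12998 tested genes of 57353 gene names. TOMM40 was not analysed here.

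All 12 libraries came from MOLM-13 cells labelled wild type and harvested at 15 hr, with 3 libraries in each of 4 groups. Cells received vehicle or quizartinib at 3 nM, which inhibits the FLT3 kinase, in regular RPMI medium or in hBMSC-CM, a medium conditioned by the human bone marrow stromal line HS-5 and mixed with RPMI. The groups are named vehicle RPMI, quizartinib RPMI, vehicle hBMSC-CM and quizartinib hBMSC-CM. A single cell line and a single dose and time limit what the groups stand for. The study calls its replicates biological, and the labels do not say how the cultures were separated. Total counts ranged from 19966546 in quizartinib RPMI replicate 3 to 31546104 in vehicle hBMSC-CM replicate 1. By a chi-square statistic of counts over genes, quizartinib hBMSC-CM replicate 1 stood apart from replicates 2 and 3 (9.80 and 9.45 per gene, against 3.16 between those 2), and vehicle hBMSC-CM replicate 3 from replicates 1 and 2 (10.5 and 6.77, against 3.73). Quizartinib RPMI replicate 1 differed from replicates 2 and 3 by 4.42 and 6.44 per gene, against 2.73 between those 2. Vehicle RPMI replicate 2 differed from replicates 1 and 3 by 4.60 and 3.92 per gene, against 2.66 between those 2. The mitochondrially encoded share of counts was 0.683% in quizartinib hBMSC-CM replicate 1, against 0.947% and 0.939% in the others of its group. The 6 comparisons described below are given here in the order quizartinib in RPMI, quizartinib in hBMSC-CM, media with quizartinib, media with vehicle, quizartinib hBMSC-CM against vehicle RPMI, and interaction. With all libraries 30, 25, 27, 12, 24 and 24 import genes were called (88.2%, 73.5%, 79.4%, 35.3%, 70.6% and 70.6% of those tested). Of all tested genes 79.3%, 67.1%, 69.8%, 32.1%, 62.1% and 45.2% were called. The number of import genes called was 30, 26, 28, 13, 23 and 25 without quizartinib hBMSC-CM replicate 1. It was 30, 26, 27, 12, 24 and 23 without vehicle hBMSC-CM replicate 3, and 29, 25, 26, 13, 24 and 23 without quizartinib RPMI replicate 1. Without vehicle RPMI replicate 2 it was 30, 25, 27, 11, 22 and 23.

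Most mitochondrial proteins are made in the cytosol as precursors. The TOM complex receives them at the outer membrane and passes barrel-shaped proteins to SAM, carrier proteins to the small TIM chaperones and TIM22, cysteine-rich proteins to the disulfide relay of CHCHD4 and GFER, and precursors with a cleavable presequence to TIM23. The matrix chaperone HSPA9 and its partners pull the last kind inward, and the processing peptidase removes the presequence.

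The labelled cell type was checked against marker genes. All 7 myeloid markers had counts in every group, and MPO was the lowest of them at 3.48 to 4.93 CPM in vehicle RPMI, where CPM is the read count relative to library size, scaled by the trimmed mean of M values (TMM). The summed level of the 7 myeloid markers moved with the drug, from 955 CPM in vehicle RPMI to 1624 CPM in quizartinib RPMI and from 1096 CPM in vehicle hBMSC-CM to 1900 CPM in quizartinib hBMSC-CM. LYZ was the most abundant of them except in quizartinib RPMI, where PTPRC was. In RPMI CSF1R was 4.05-fold and FLT3 2.17-fold higher with quizartinib, while CD33 and MPO were lower (log2 fold changes -0.28 and -0.41). Single markers also moved with the medium. With quizartinib, mean LYZ was 354 CPM in RPMI and 1010 CPM in hBMSC-CM, and mean FLT3 was 454 and 157 CPM. With vehicle, mean LYZ was 275 and 503 CPM and mean FLT3 209 and 113 CPM. The part of the myeloid markers in the results was not tested. Of 9 stromal markers, COL3A1, LUM, DCN, POSTN and THY1 were at 0 counts in all 12 libraries. COL1A1 moved most among the stromal markers, at 0.117 to 0.277 CPM in vehicle RPMI, 4.35 to 4.84 CPM in quizartinib RPMI, 0.142 to 0.30 CPM in vehicle hBMSC-CM and 0.841 to 1.12 CPM in quizartinib hBMSC-CM, and its part in the results was not tested. The summed level of the 9 stromal markers was 0.491 CPM in vehicle RPMI, 5.22 CPM in quizartinib RPMI, 0.615 CPM in vehicle hBMSC-CM and 1.81 CPM in quizartinib hBMSC-CM. In bulk RNA, a lower level in each cell and a change in which cells contributed RNA cannot be told apart.

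To see what FLT3 inhibition did to the import genes in regular medium, quizartinib RPMI was compared with vehicle RPMI. The import machinery was broadly lower: 28 of 34 tested genes fell and only PMPCB and TOMM7 rose, at an adjusted p under 0.05 (quasi-likelihood test in edgeR, Benjamini-Hochberg over all tested genes). Falls and rises here are relative to the other genes of a library, and RNA per cell was not measured in these libraries. In its separate polysome experiment, the study reports that quizartinib reduced RNA levels, more in polysomes than in whole lysates. Among all tested genes 39.2% were called lower and 40.1% higher, so the comparison was broad, but its median log2 fold change was 0.025 against -0.71 for the import genes. At least 2-fold decreases were seen for 14 import genes, against 11.8% of all tested genes. No vehicle and quizartinib libraries overlapped for 31 import genes, against 81.1% of all tested genes. The summed level of the tested import genes was 2945, 2927 and 2887 CPM in vehicle RPMI and 1683, 1696 and 1705 CPM in quizartinib RPMI. HSPA9 alone made up 25.5% of that sum in vehicle RPMI and 15.3% in quizartinib RPMI. Without HSPA9 the sum was 2176 ± 24.5 CPM (SD, n = 3) and 1436 ± 13.8 CPM, so the decrease was not carried by its most abundant gene alone. The share of counts from mitochondrially encoded genes moved the other way, from 0.683% to 0.79% in vehicle RPMI to 1.02% to 1.10% in quizartinib RPMI (0.458% to 0.613% and 0.683% to 0.947% in the hBMSC-CM groups), and its part in the results was not tested. The plot of import gene mRNA by library shows the decrease across the complexes.

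**Figure D1:**
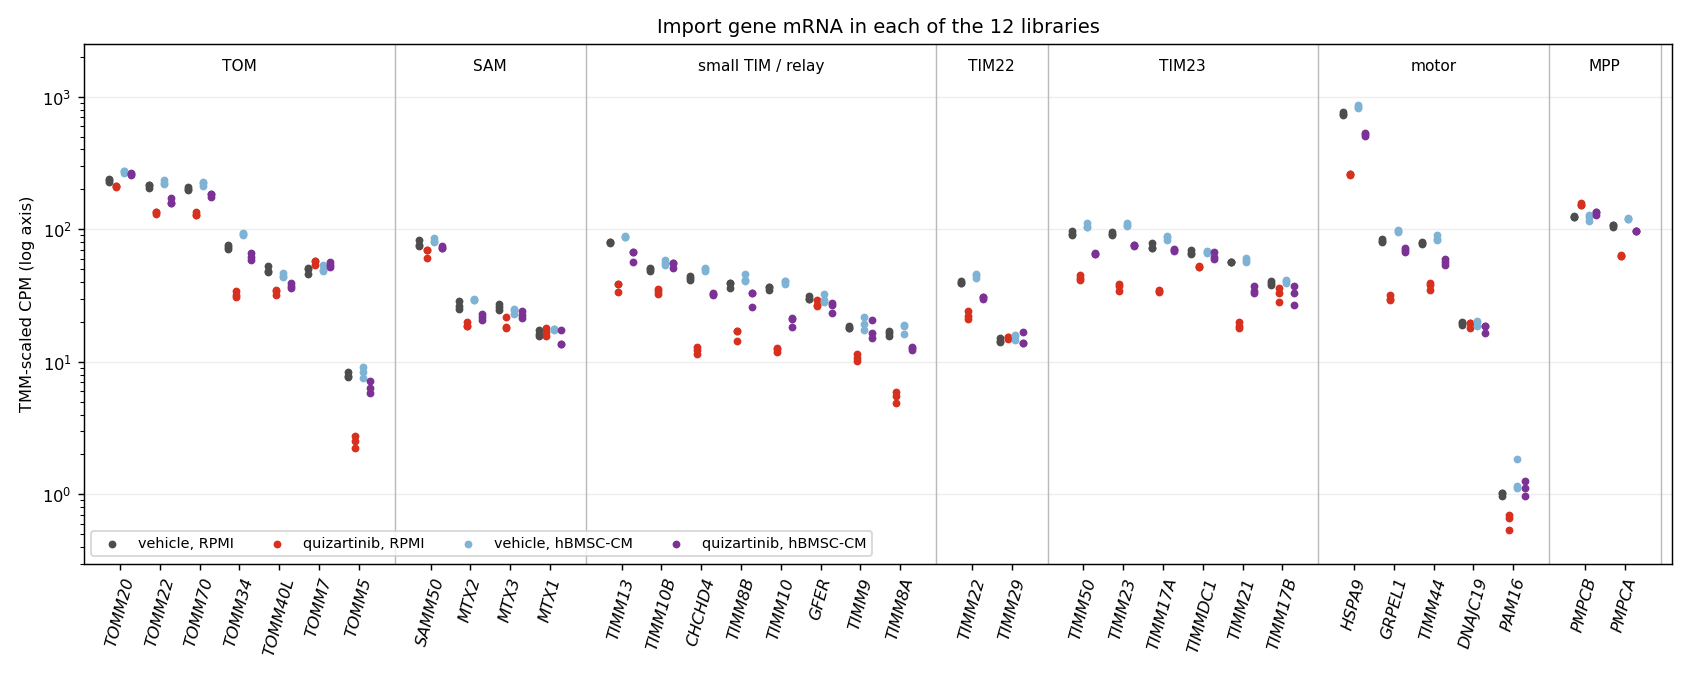
TMM-scaled CPM (log axis) of the 34 tested import genes in each of the 12 libraries, grouped by complex, with 1 point per library and 1 colour per group. The quizartinib RPMI points lie lowest for most genes, for example 255 to 261 CPM for HSPA9 against 725 to 766 CPM in vehicle RPMI, whereas those of PMPCB and TOMM7 lie above vehicle RPMI.

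The sequence before the start of these genes was searched for letters that known activators of nuclear-encoded mitochondrial and growth genes bind. RefSeq promoter windows of 300 bases (250 before and 50 after the start, GRCh38.p14) were found for 31 of the 34 tested import genes. The E-box CACGTG, the core recognised by the MYC family, was in windows of 5 of the 31 genes (16.1%) and in 7.26% of all 35116 windows. The NRF1 letters GCGCATGCG were in windows of 3 genes (9.68%), namely CHCHD4, TIMM9 and TOMM7, against 1.92% of all windows. The ETS letters CCGGAAGT were in windows of 8 genes (25.8%) against 4.14%, and the YY1 letters AAGATGGCG in those of 4 genes (12.9%) against 1.75%. The shares are not fully alike: each import gene counts once, also the 2 with more than 1 window, while the share of all windows counts every window. Each motif was searched on both strands, none of the 4 contains another, and the set of all windows also holds genes that MOLM-13 cells do not express. The 5 stretches with an E-box are shown because their genes range from large decreases (HSPA9, TIMM8A and TIMM10) to small ones (MTX3 and TOMM20), while the windows of CHCHD4, TIMM21 and TIMM23, with large decreases, hold no E-box. The NRF1 stretch of CHCHD4 is shown because its decrease was the largest of the list. Each is 30 bases, read 5′ to 3′ on the strand of the gene, with the E-box or NRF1 letters matched on that strand in capitals. The CHCHD4 window holds 2 NRF1 matches, and the other, on the opposite strand, overlaps the capitals and ends just past them. The ETS letters also open the TIMM10 stretch and are left in lower case there.
HSPA9 (chr5:138575403-138575432, minus strand): cgcccctcacccCACGTGgttggaggtttc
TIMM10 (chr11:57530738-57530767, minus strand): ccggaagtaaccCACGTGcttccgctggag
TIMM8A (chrX:101348697-101348726, minus strand): ccgtcgcggagaCACGTGaaggtcggtgcg
TOMM20 (chr1:235128988-235129017, minus strand): aaagtccgtggtCACGTGcaaattcccgac
MTX3 (chr5:79991281-79991310, minus strand): gcccccgcgtttCACGTGccggaaattagg
CHCHD4 (chr3:14125003-14125032, minus strand): cagtgtttctGCGCATGCGcgcggcgagac
The match began 19 bases before the RefSeq start in HSPA9, 1 base before it in TIMM10, 28 bases after it in TIMM8A, 168 bases before it in TOMM20, 36 bases before it in MTX3 and 152 bases before it in CHCHD4. These 6 genes did not move alike: the log2 fold change with quizartinib in RPMI was -1.82 for CHCHD4 and -0.15 for TOMM20. A match of letters is a description of the sequence, and binding was not measured in these libraries.

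At the outer membrane, TOMM5 had the largest log2 fold change of the TOM genes. TOMM5, which stabilises the TOM pore, was at 7.80, 7.67 and 8.35 CPM in vehicle RPMI and at 2.25, 2.54 and 2.74 CPM in quizartinib RPMI. Every quizartinib library was below every vehicle library, and the fitted decrease was 3.17-fold (log2 fold change -1.66 ± 0.12 SE, edgeR adjusted p = 7.5e-11). The annotation (GENCODE v44, GRCh38) places other genes over 81.9% of the exon bases of TOMM5, all of them overlapped on the same strand. Counting by strand would not separate these genes, so the reads assigned to TOMM5 are uncertain. The counting's use of strand is not given in the sources used here. The receptors TOMM22 and TOMM70, whose exons no other gene overlaps, fell with log2 fold changes of -0.67 ± 0.04 and -0.63 ± 0.04, and TOMM34, a cytosolic cochaperone of precursors, with -1.18 ± 0.05.

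The presequence receptor TOMM20 fell by the smallest amount among the called TOM genes, from 240, 229 and 234 CPM to 212, 213 and 208 CPM (log2 fold change -0.15 ± 0.04, edgeR adjusted p = 0.00138). Scaled by library size alone or by upper quartiles, the decrease of TOMM20 did not pass the test (adjusted p = 0.132 and 0.235). TOMM40L, a paralog of the TOM pore protein, fell with a log2 fold change of -0.56 ± 0.06, from 47.2 to 52.4 CPM in vehicle RPMI to 31.8 to 35.0 CPM in quizartinib RPMI. TOMM7, a small subunit that modulates assembly of the complex, instead rose from 51.4, 49.7 and 46.1 CPM to 53.9, 57.2 and 58.0 CPM (log2 fold change 0.20 ± 0.05, edgeR adjusted p = 0.00262). Its groups did not overlap, but the rise did not pass the test when no filter on low counts was used (log2 fold change 0.09, adjusted p = 0.218). TOMM6 was at 0 counts in all 12 libraries, which allows at most 0.0951 to 0.15 CPM (3 counts) per library for counting error, and all of its exon bases lie under another gene.

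Of the 4 SAM genes 3 fell and none fell by 2-fold. SAMM50, the core of the barrel insertase, fell with a log2 fold change of -0.23 ± 0.05, MTX2 with -0.48 ± 0.06 and MTX3 with -0.42 ± 0.07 (edgeR adjusted p = 5.98e-04, 7.88e-07 and 2.75e-05). MTX1, a partner of MTX2 at the outer membrane, was at 15.7, 16.1 and 17.4 CPM in vehicle RPMI and at 16.7, 18.1 and 15.7 CPM in quizartinib RPMI, so that its groups overlapped and it did not pass the test (log2 fold change 0.045 ± 0.08, adjusted p = 0.631). MTX2 was at 25.1, 26.3 and 28.7 CPM against 18.5, 20.1 and 18.6 CPM. MTX3 was at 24.5, 27.2 and 26.0 CPM against 21.7, 18.3 and 18.1 CPM. MTX2 and MTX3 were thus lower in every quizartinib library, and MTX1 was not.

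The intermembrane space held the largest decrease of the list. CHCHD4, the oxidoreductase that folds cysteine-rich precursors and thereby traps them, was at 42.8, 44.1 and 41.4 CPM in vehicle RPMI and at 12.2, 11.4 and 12.9 CPM in quizartinib RPMI. The 3.53-fold decrease (log2 fold change -1.82 ± 0.06, edgeR adjusted p = 6.53e-17) was many times the spread between replicates. GFER, the sulfhydryl oxidase that reoxidises CHCHD4, was at 31.3, 29.8 and 29.8 CPM against 26.2, 29.4 and 27.0 CPM, groups that did not overlap, but the difference did not pass the test (log2 fold change -0.13 ± 0.07, adjusted p = 0.0755), although it did under 5 alternatives. Within each library, the ratio of GFER to CHCHD4 counts therefore went from 0.676, 0.719 and 0.731 to 2.09, 2.15 and 2.57, with no overlap. Other genes lie over 44.6% of the exon bases of GFER, on the opposite strand only. As the counting's use of strand is not given, the level of GFER is less certain than that of CHCHD4.

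The small TIM chaperones escort hydrophobic precursors across the intermembrane space. All 6 of them fell, 4 of them by at least 2-fold. TIMM8A was at 16.4, 15.6 and 17.1 CPM in vehicle RPMI and at 5.55, 5.87 and 4.88 CPM in quizartinib RPMI (log2 fold change -1.58 ± 0.09, edgeR adjusted p = 1.05e-12). TIMM10, which pairs with TIMM9 in the main carrier chaperone, was at 36.9, 34.8 and 36.8 CPM against 12.6, 11.9 and 12.4 CPM (log2 fold change -1.56 ± 0.07, adjusted p = 5.93e-15). The drop of TIMM10 exceeded that of its partner TIMM9, which went from 18.0, 18.5 and 17.8 CPM to 11.4, 10.1 and 10.7 CPM, and the ratio of TIMM10 to TIMM9 counts within a library went from 1.88 to 2.06 down to 1.11 to 1.18. TIMM8B, a paralog of TIMM8A, fell with a log2 fold change of -1.26 ± 0.09 and TIMM13, with which TIMM8A assembles, with -1.10 ± 0.06. Other genes overlap 45.0% of the exon bases of TIMM8B and 30.03% of those of TIMM9, on the opposite strand only. TIMM10B, which docks the chaperones at TIM22, fell with -0.55 ± 0.05.

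Of the TIM22 translocase, which inserts carrier proteins into the inner membrane, the channel subunit TIMM22 fell from 39.1, 39.2 and 40.9 CPM to 21.1, 22 and 24 CPM (log2 fold change -0.83 ± 0.06, edgeR adjusted p = 1.82e-11). TIMM29, a subunit that ties the complex to TOM, was at 14.2, 15.0 and 14.2 CPM against 14.9, 15.5 and 15.3 CPM, groups that overlapped, and did not pass the test (log2 fold change 0.073 ± 0.08, adjusted p = 0.392). AGK, a lipid kinase that is also a TIM22 subunit, had 1 count in all 12 libraries together and was not tested. A lack of counts for AGK limits only what this table assigns to that name.

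The 6 genes listed under TIM23 all fell, 4 of them by at least 2-fold. TIMM21, which links TIM23 to the TOM exit site and to the respiratory chain, was at 56.2, 57.0 and 56.2 CPM in vehicle RPMI and at 18.8, 18.0 and 20.1 CPM in quizartinib RPMI (log2 fold change -1.58 ± 0.06, edgeR adjusted p = 6.39e-16). The central subunit TIMM23 was at 95.4, 91.7 and 90 CPM against 38.6, 34.1 and 37.4 CPM (log2 fold change -1.33 ± 0.05, adjusted p = 3.38e-16). Both genes separated completely between the groups. Reads of TIMM23 may be shared with its near-identical copy TIMM23B, which was counted at 2.72 to 3.01 CPM in vehicle RPMI and at 1.27 to 1.47 CPM in quizartinib RPMI. TIMM50, the presequence receptor of the complex, fell with a log2 fold change of -1.11 ± 0.05. TIMMDC1, a complex I assembly factor that was listed with this group, fell with -0.36 ± 0.05.

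The paralogs TIMM17A and TIMM17B, alternative subunits of TIM23, fell by different amounts. TIMM17A was at 71.8, 78.2 and 72.8 CPM in vehicle RPMI and at 33.6, 34.2 and 34.8 CPM in quizartinib RPMI (log2 fold change -1.12 ± 0.05, edgeR adjusted p = 6.83e-15). TIMM17B was at 40.7, 39.2 and 38 CPM against 28.4, 33.1 and 36.2 CPM (log2 fold change -0.28 ± 0.09, adjusted p = 0.00754), a decrease that did not pass the test scaled by library size alone (adjusted p = 0.0525), by upper quartiles (0.0746) or without quizartinib RPMI replicate 1 (0.075). Per kilobase of transcript, TIMM17A and TIMM17B were at 45.0 ± 2.11 and 48.0 ± 1.65 CPM per kb in vehicle RPMI (SD, n = 3), close to each other, and at 20.7 ± 0.383 and 39.8 ± 4.79 CPM per kb in quizartinib RPMI. The ratio of their counts within a library, which no scaling affects, was 1.76, 1.92 and 2.00 in vehicle RPMI and 0.962, 1.04 and 1.18 in quizartinib RPMI.

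In the import motor, the 3 core components fell together. HSPA9, the matrix HSP70 that drives translocation, was at 741, 766 and 725 CPM in vehicle RPMI and at 261, 259 and 255 CPM in quizartinib RPMI (log2 fold change -1.53 ± 0.04, edgeR adjusted p = 4.88e-18). GRPEL1, the nucleotide exchange factor of HSPA9, was at 83.9, 81.2 and 79.9 CPM against 29.1, 29.6 and 32.1 CPM (log2 fold change -1.43 ± 0.05, adjusted p = 1.65e-16). TIMM44, which tethers HSPA9 to the channel, fell with a log2 fold change of -1.08 ± 0.06. Of the J-domain cochaperones, DNAJC19 was at 19.8, 19.7 and 18.8 CPM against 19.6, 17.8 and 19.5 CPM and did not pass the test (log2 fold change -0.041 ± 0.07, adjusted p = 0.593), and its paralog DNAJC15 was at 0 counts in all 12 libraries. PAM16, which controls the J-domain partners of HSPA9, was near 1 CPM in vehicle RPMI with 83.1% of its exon bases under another gene. PAM16 fell with a log2 fold change of -0.65 ± 0.26 (adjusted p = 0.0258), a call that was lost with DESeq2 (adjusted p = 0.0699), scaled by library size alone or by upper quartiles (0.0518 and 0.0564) and without vehicle RPMI replicate 1, quizartinib RPMI replicate 2 or quizartinib RPMI replicate 3 (0.0603, 0.0529 and 0.0792).

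The 2 subunits of the processing peptidase moved in opposite directions. PMPCA, which recognises the presequence, went from 107, 104 and 107 CPM to 63.0, 62.9 and 63.9 CPM (log2 fold change -0.75 ± 0.04, edgeR adjusted p = 1.25e-13). PMPCB, the catalytic subunit, went from 127, 124 and 123 CPM to 157, 152 and 151 CPM (log2 fold change 0.30 ± 0.04, adjusted p = 2.14e-06). Neither pair of groups overlapped. Another gene lies over 20.8% of the exon bases of PMPCB, on the opposite strand only, and none over those of PMPCA. As the counting's use of strand is not given, the reads assigned to PMPCB are less certain. The ratio of PMPCA to PMPCB counts was 0.842, 0.842 and 0.875 in the vehicle RPMI libraries and 0.401, 0.414 and 0.423 in the quizartinib RPMI libraries.

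Ranked by level per kilobase, HSPA9 was first in vehicle RPMI at 169 ± 4.66 CPM per kb, ahead of TOMM7 at 113 ± 6.23 and TOMM22 at 105 ± 2.82. In quizartinib RPMI TOMM7 was first at 129.9 ± 4.98 CPM per kb, and TOMM22, TOMM20 and HSPA9 followed at 65.7 ± 1.56, 64.3 ± 0.886 and 58.7 ± 0.657. TOMM22 and TOMM20 did not differ beyond their spread in that group. CHCHD4 moved from place 18 to place 28 of 34.

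To ask whether the stromal medium altered this response, the effect of quizartinib was measured within hBMSC-CM and compared with that in RPMI. In hBMSC-CM the import genes again moved mostly downward, with 24 of 34 lower, 1 (PMPCB) higher and none by at least 2-fold (2.03% of all tested genes fell that far). Of the 24, 6 fell by at least 1.5-fold, beside 9.2% of all tested genes, and 2861 of the 12998 tested genes passed that limit in either direction. Among all tested genes 33.7% were called lower and 33.4% higher, with a median log2 fold change of 0.0094 against -0.32 for the import genes. The summed level was 3166, 3272 and 3247 CPM in vehicle hBMSC-CM and 2475, 2435 and 2400 CPM in quizartinib hBMSC-CM, so it fell in this medium as well but stayed above that of quizartinib RPMI in every library. The largest decreases were those of TIMM10 (log2 fold change -0.98 ± 0.06, edgeR adjusted p = 2.06e-11), TIMM21 (-0.75 ± 0.06, adjusted p = 2.47e-10) and TIMM50 (-0.70 ± 0.05, adjusted p = 3.52e-11). Scaled by library size alone or by upper quartiles, the calls of SAMM50, MTX1 and GFER in this medium were lost (adjusted p from 0.0914 to 0.184). The call of MTX1 was also lost at a mean CPM of at least 5 (0.0576) and without vehicle hBMSC-CM replicate 1 or quizartinib hBMSC-CM replicate 2 or 3 (0.0539 to 0.12). That of GFER was lost without vehicle hBMSC-CM replicate 3 or quizartinib hBMSC-CM replicate 2 (0.0697 and 0.0977). The higher call of PMPCB was lost with no filter on low counts (0.154) and without vehicle hBMSC-CM replicate 1 or quizartinib hBMSC-CM replicate 2 (0.127 and 0.0511).

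The difference between the 2 drug effects was tested directly as an interaction, the log2 fold change in hBMSC-CM minus that in RPMI. It was positive, a smaller decrease in hBMSC-CM, for 23 import genes and negative for PMPCB, against 26.1% and 19.2% of all tested genes. The negative call of PMPCB was lost with no filter on low counts (edgeR adjusted p = 0.441) and without single libraries (0.0528 to 0.104). At an adjusted p under 0.01, 21 import genes had a positive interaction and 0 a negative one. That threshold called 4289 of all tested genes, 62.0% of them with a positive interaction. For 12 of the 23 the interaction was at least 1.5-fold, beside 11.4% of all tested genes. The 5 largest belonged to TOMM5 (1.28 ± 0.17), CHCHD4 (1.2 ± 0.08), TIMM8A (1.06 ± 0.12), GRPEL1 (0.96 ± 0.07) and HSPA9 (0.83 ± 0.06), with edgeR adjusted p between 1.04e-10 and 1.96e-06. All 23 were among the 28 genes lowered in RPMI (82.1%), and of all 5096 tested genes lowered in RPMI 60.8% had a positive interaction. Of the 28, 22 were also lowered in hBMSC-CM (78.6%), a share near the 76.8% of all genes lowered in RPMI, and dividing each gene's log2 change in hBMSC-CM by its RPMI value gave a median of 0.42, beside 0.49 for the 5096. The vehicle and quizartinib RPMI libraries enter both this ratio and the interaction, so the 2 are not separate evidence. The scatter of the quizartinib effect in both media shows most points above the line of equal effect.

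**Figure D2:**
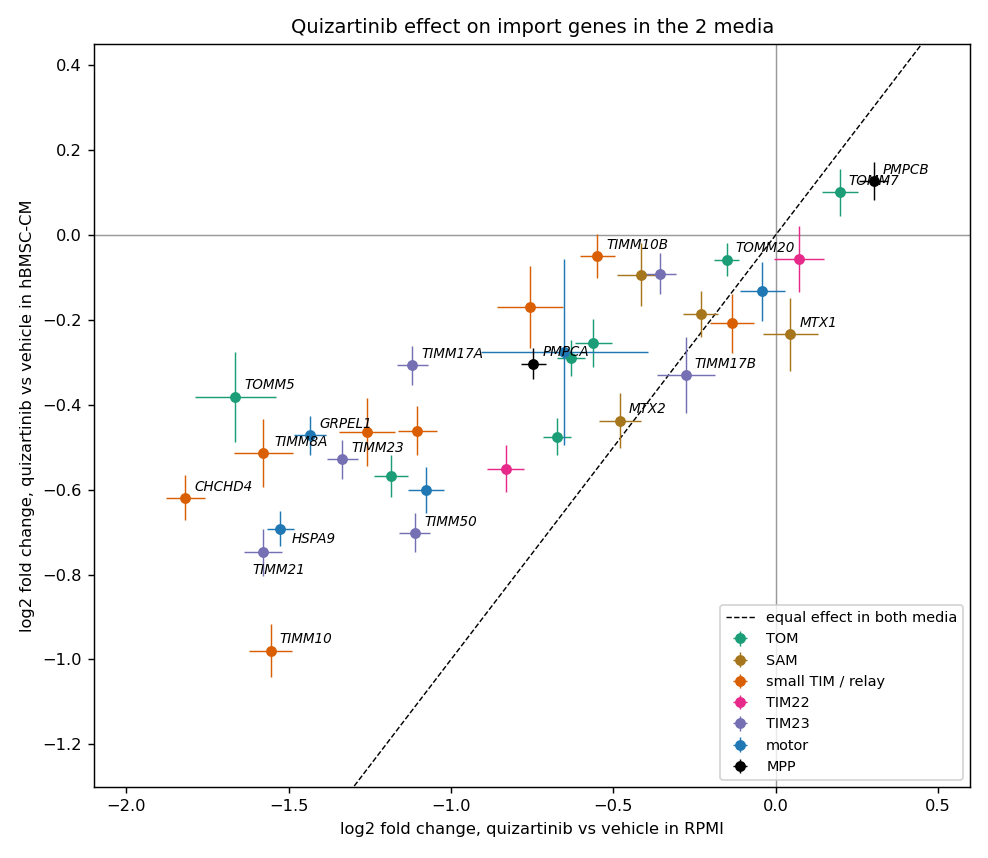
Log2 fold change with quizartinib in RPMI (horizontal) and in hBMSC-CM (vertical) for the 34 tested import genes, coloured by complex, with bars of 1 SE and a dashed line of equal effect. CHCHD4 (-1.82 and -0.62) and TOMM5 (-1.66 and -0.38) lie far above the line, while MTX2 (-0.48 and -0.44) and TIMM17B (-0.28 and -0.33) lie next to it.

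The interaction was positive for 7 of 8 genes of the small TIM and disulfide relay group and 5 of 6 genes listed under TIM23, TIMMDC1 among them. It was also positive for 5 of 7 tested TOM genes, 3 of 5 tested motor genes, TIMM22 and PMPCA. Of the 4 SAM genes 1 (MTX3) had a positive interaction (25%), a share near the 26.1% of all tested genes. The MTX3 call was lost without quizartinib RPMI replicate 2 (edgeR adjusted p = 0.0553). SAMM50 and MTX2 were lowered in both media, with log2 fold changes of -0.23 ± 0.05 and -0.48 ± 0.06 in RPMI and -0.19 ± 0.05 and -0.44 ± 0.06 in hBMSC-CM, and their interactions did not pass the test (adjusted p = 0.673 and 0.731). TIMM10 kept 0.63 of its RPMI log2 change in hBMSC-CM, TIMM50 0.631 and TOMM22 0.706, whereas TIMM10B kept 0.092, TOMM5 0.229 and TIMM17A 0.275. The interaction was positive for each of these 6 genes.

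Compared under quizartinib, hBMSC-CM had higher levels than RPMI for 26 of 34 import genes and a lower level only for PMPCB (log2 fold change -0.20 ± 0.04). Of all tested genes 35.5% were called higher and 34.3% lower, with a median log2 fold change of 0.0020 against 0.60 for the import genes. CHCHD4 was at 32.7, 31.8 and 33.0 CPM in quizartinib hBMSC-CM, clear of the 11.4 to 12.9 CPM of quizartinib RPMI (log2 fold change 1.42 ± 0.06, edgeR adjusted p = 1.78e-14). TOMM5 was at 5.82, 7.16 and 6.37 CPM (log2 fold change 1.36 ± 0.13, adjusted p = 7.29e-09). GRPEL1 was at 72.7, 70.1 and 66.9 CPM (log2 fold change 1.21 ± 0.05, adjusted p = 9.92e-15). In all 3 genes every hBMSC-CM library was more than double the highest RPMI library. TIMM8A was at 12.8, 12.7 and 12.3 CPM (log2 fold change 1.2 ± 0.10) and TIMM23 at 74.1, 75.6 and 76.2 CPM (log2 fold change 1.04 ± 0.05). Next in size were TIMM17A (log2 fold change 1.03 ± 0.05) and HSPA9, at 526, 528 and 508 CPM (1.01 ± 0.04). The calls of TOMM40L, MTX2 and MTX3 were lost without single libraries (adjusted p from 0.054 to 0.109), which were quizartinib RPMI replicate 2 and quizartinib hBMSC-CM replicate 3 for TOMM40L, quizartinib RPMI replicates 1 and 3 and quizartinib hBMSC-CM replicate 3 for MTX2, and quizartinib RPMI replicates 2 and 3 and quizartinib hBMSC-CM replicate 2 for MTX3. Under upper-quartile scaling TOMM40L and MTX2 also lost their calls (adjusted p = 0.0765 and 0.0649).

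Without drug, the medium made a small difference. With vehicle, 12 of 34 import genes were higher in hBMSC-CM and none lower in the main edgeR fit, against 16.6% and 15.5% of all tested genes. At an unadjusted p under 0.05 in that fit 1 gene, TOMM40L, was lower, and limma-voom called 1 lower and DESeq2 0. With edgeR 1 was also called lower scaled by library size alone or by upper quartiles, at a mean CPM of at least 5 and with the compared groups alone. The same held without replicate 3 of vehicle RPMI or of vehicle hBMSC-CM. The median log2 fold change was 0.14 for the import genes and -0.0025 for all tested genes. The largest among the called genes was TOMM34, at 92.2, 91.0 and 93.9 CPM in vehicle hBMSC-CM and 75.7, 72.8 and 71.2 CPM in vehicle RPMI (log2 fold change 0.33 ± 0.05, edgeR adjusted p = 2.53e-05). GRPEL1 followed at 95, 97 and 99.3 CPM (log2 fold change 0.25 ± 0.05) and TIMM23 at 107, 111 and 108 CPM (log2 fold change 0.23 ± 0.04). No hBMSC-CM library of these 3 genes overlapped vehicle RPMI. None of the 12 differences reached 1.5-fold (2.27% of all tested genes were higher by that much), and those of TOMM70, TIMM10B and TIMM22 were lost under upper-quartile scaling (adjusted p = 0.0619, 0.0531 and 0.0534). Those 3 calls were also lost without single libraries (0.0516 to 0.0956), namely vehicle RPMI replicate 1 for all 3, vehicle RPMI replicate 3 for TOMM70, vehicle RPMI replicate 2 for TIMM22, vehicle hBMSC-CM replicates 2 and 3 for TOMM70, 3 for TIMM10B, and 1 and 2 for TIMM22.

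Set against untreated cells in regular medium, quizartinib hBMSC-CM still had lower levels of most import genes. Compared with vehicle RPMI, 22 of 34 were lower and 2 (TOMM20 and TOMM7) higher, against 31.6% and 30.6% of all tested genes, with a median log2 fold change of -0.23 against 0.0053. Of the 22, 2 were lower by at least 1.5-fold, a share of the list near the 7.78% of all tested genes, and 2352 tested genes passed that limit in either direction. Of the 28 genes lowered by quizartinib in RPMI, 21 were below vehicle RPMI, TOMM20 was above it and 6 did not pass the test in this comparison. Of all 5096 tested genes lowered in RPMI, 3368 were below, 296 above and 1432 did not pass. TIMM10 was furthest below, at 21.4, 18.4 and 21.1 CPM against 34.8 to 36.9 CPM (log2 fold change -0.83 ± 0.06, edgeR adjusted p = 2.96e-10). TIMM21 was at 34.0, 33.3 and 37.5 CPM against 56.2 to 57.0 CPM (log2 fold change -0.69 ± 0.06, adjusted p = 7.97e-10). TIMM17A, at 69.6, 71.6 and 68.4 CPM, did not pass the test against the 71.8 to 78.2 CPM of vehicle RPMI (adjusted p = 0.0988), although its highest library was just below their lowest. The rise of TOMM7 (log2 fold change 0.13 ± 0.06, adjusted p = 0.0415) did not pass the test with DESeq2 (adjusted p = 0.0789). It also did not pass in edgeR with DESeq2 size factors (0.057) or with no filter on low counts (0.192). The same held without vehicle RPMI replicate 2 or 3 or quizartinib hBMSC-CM replicate 1 or 2 (0.0663 to 0.206). The lower call of MTX3 was lost at a mean CPM of at least 5 (0.0658) and without vehicle RPMI replicate 2 or 3 or quizartinib hBMSC-CM replicate 1 or 3 (0.0561 to 0.119). That of TOMM5 was lost without vehicle RPMI replicate 3 or quizartinib hBMSC-CM replicate 1 (0.0582 and 0.103). Those of GFER and TIMM17B were lost without quizartinib hBMSC-CM replicate 2 (0.0686 and 0.0863). Under upper-quartile scaling the calls of MTX3 and PMPCA were lost (0.109 and 0.0822), and scaled by library size alone 16 genes were lower and 4 higher. This comparison shares libraries with the others above. The plot of import genes beside all genes tested sets the 6 comparisons side by side.

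**Figure D3:**
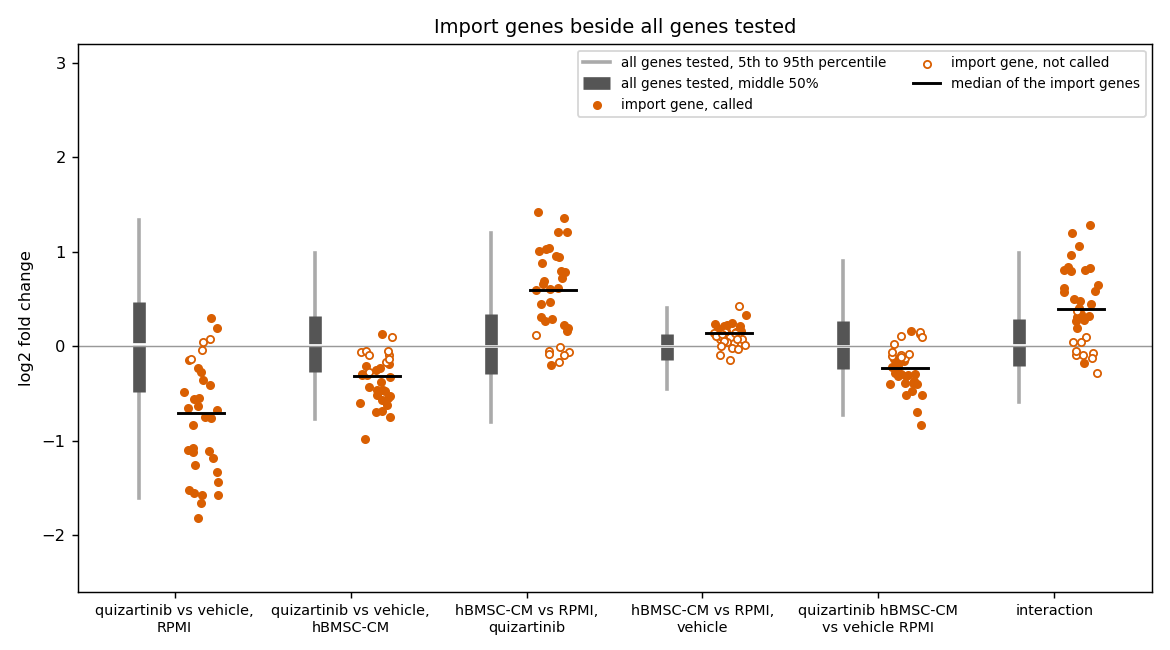
Log2 fold change of the 34 tested import genes in each of 6 comparisons (filled points called, open points not called, black line their median), beside all 12998 tested genes (grey line from the 5th to the 95th percentile, dark bar the middle 50%, white line the median). The import genes sit mostly below 0 with quizartinib in both media (medians -0.71 and -0.32) and mostly above 0 for hBMSC-CM against RPMI with quizartinib (median 0.60), while the medians of all genes lie near 0.

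Ratios within a library show which related genes changed together. GRPEL1 and GRPEL2, the paired exchange factors of HSPA9, both fell in RPMI, and their count ratio was 1.82 to 1.88 in vehicle RPMI and 1.80 to 2.16 in quizartinib RPMI. In quizartinib hBMSC-CM it was 2.44 to 2.72, above every other library, and GRPEL2 was at 27.2, 25.8 and 27.4 CPM against 44.6, 44.2 and 43.9 CPM in vehicle RPMI and 16.2, 15.3 and 14.8 CPM in quizartinib RPMI. The ratio of TIMM8A to TIMM8B differed less between the groups in RPMI than that of TIMM17A to TIMM17B, at 0.400 to 0.471 in vehicle RPMI and 0.287 to 0.390 in quizartinib RPMI. The ratio of TIMM17A to TIMM17B was 1.88 to 2.68 in quizartinib hBMSC-CM and overlapped the 2.00 to 2.25 of vehicle hBMSC-CM, unlike in RPMI. TIMM10 to TIMM10B behaved otherwise, at 0.693 to 0.764 in vehicle RPMI, 0.347 to 0.380 in quizartinib RPMI, 0.657 to 0.764 in vehicle hBMSC-CM and 0.359 to 0.387 in quizartinib hBMSC-CM. That ratio was thus low with quizartinib in either medium. PMPCA to PMPCB lay between, at 0.712 to 0.756 in quizartinib hBMSC-CM against 0.948 to 1.04 in vehicle hBMSC-CM. GFER to CHCHD4 was 0.558 to 0.642 in vehicle hBMSC-CM and 0.736 to 0.835 in quizartinib hBMSC-CM. The ratios were not tested, and the smallest p that a two-sided exact permutation test allows with 3 libraries a group is 0.1.

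**Figure D4:**
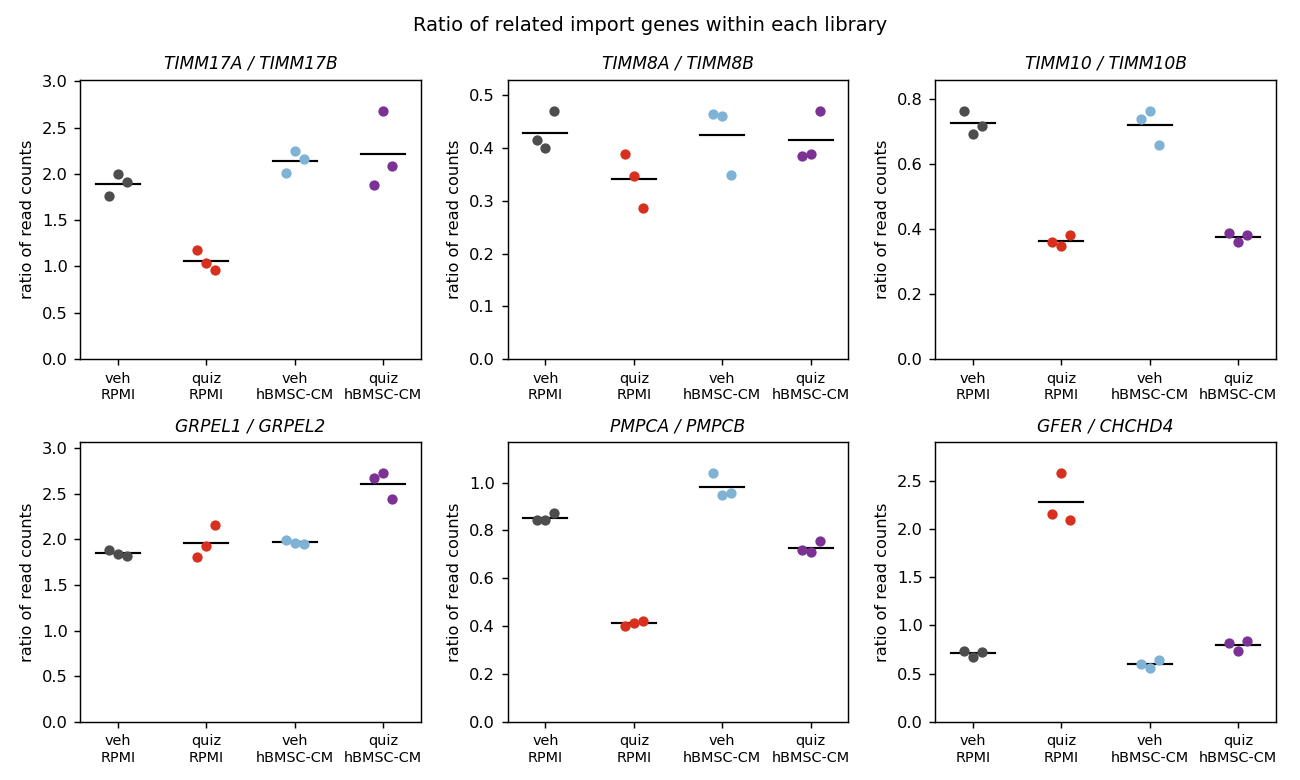
Ratio of read counts of 6 pairs of related import genes in each library (1 point per library, black line the mean of 3, axes from 0), for vehicle (veh) and quizartinib (quiz) in RPMI and hBMSC-CM. TIMM17A to TIMM17B is low only among the quizartinib RPMI libraries (0.962 to 1.18), TIMM10 to TIMM10B is low with quizartinib in both media, and GFER to CHCHD4 is high in quizartinib RPMI (2.09 to 2.57).

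The genes that act beside the import machinery were taken from a second list of 50 genes, of which 49 were tested. With quizartinib in RPMI 38 were lower and 9 higher, against 39.2% and 40.1% of all tested genes, with a median log2 fold change of -0.66 against 0.025. All 4 matrix folding genes were lower, and 6 of 8 cytosolic chaperone genes, 7 of 8 MICOS genes (which shape the cristae) and 11 of 16 peptidases and proteases. The strongest decrease was that of HSPE1, the cochaperonin of HSPD1, from 21, 19.4 and 19.96 CPM to 4.81, 4.41 and 4.49 CPM (log2 fold change -2.14 ± 0.09). HSPA8, the cytosolic HSP70 that hands precursors to TOMM70, and its cochaperone STIP1 followed with -1.83 ± 0.05 and -1.64 ± 0.04. HSPE1 shares 34.5% of its exon bases with another gene. The largest rises were those of the rhomboid protease PARL (1.08 ± 0.12), of which 70.8% of exon bases lie under other genes, the cytochrome c oxidase assembly factor COX19 (0.66 ± 0.05) and the MICOS subunit APOOL (0.37 ± 0.07).

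Between the media with quizartinib, 35 of these 49 genes were higher in hBMSC-CM and 6 lower, against 35.5% and 34.3% of all tested genes. HSPE1, STIP1 and HSPA8 were again furthest apart, with log2 fold changes of 1.41 ± 0.09, 1.08 ± 0.04 and 1.06 ± 0.05. HSPE1 was at 13.2, 11.1 and 11.9 CPM in quizartinib hBMSC-CM, above every quizartinib RPMI library and below every vehicle library. COX19, APOOL and XPNPEP3, a peptidase that trims imported proteins, were the lowest, with -0.53 ± 0.05, -0.29 ± 0.07 and -0.25 ± 0.07.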

How the data were processed

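RNA-seq libraries (poly-A selected, paired-end) were analysed from the gene table the authors deposited, which holds raw counts per gene name. Per the study's methods, the authors trimmed reads with BBDuk, aligned them to Ensembl hg38 and counted genes with STAR (2.6.0a), then summed identifiers that share a name. Strand use is not given in the sources used here. The gene lists and comparisons were chosen with earlier results of these data known.

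Counts were fitted with edgeR 4.0.16 (R 4.3.3): TMM scaling, 1 model with 4 group means (8 residual degrees of freedom), quasi-likelihood tests, and Benjamini-Hochberg adjustment over 12998 genes whose mean count and mean CPM were both 1 or more. Genes with an adjusted p under 0.05 were called. Errors of log2 fold changes are standard errors. Values per library were given for the 8 largest decreases, the largest increases, the 5 largest interactions and media differences with quizartinib, the 3 largest with vehicle, the genes that failed the filter, and fixed paralog pairs. The other ratios were chosen after their values were seen. CPM per kb used the canonical transcript of GENCODE v44. In simulated data for quizartinib against vehicle in RPMI, on 12998 genes, 111 of 111 changes of log2 size 1 and 75 of 89 of size 0.5 were called, with 16 false calls. The simulation changed only 200 genes, whereas 79.3% of tested genes were called in the real comparison. Its false calls therefore do not measure those of the real data, where scaling has more to correct. Intervals from a count of 0 cover counting error only. Alternatives were other scalings (RLE, library size only, upper quartile), DESeq2 1.42.0, limma-voom (limma 3.58.1), other filters and thresholds, fits on the compared groups alone, a replicate block, and leaving out each library.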

Additional observations from a re-analysis of the deposited data

Results flagged for a closer look

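The effect of quizartinib differed between RPMI and hBMSC-CM, by the interaction test in edgeR (adjusted p under 0.05), for 24 import genes. These were 70.6% of the import genes tested, beside 45.2% of all tested genes. The log2 differences not given above were 0.83 for TIMM21, 0.81 for TIMM17A, 0.81 for TIMM23, 0.79 for TIMM8B, 0.64 for TIMM13, 0.62 for TOMM34, 0.59 for TIMM9, 0.58 for TIMM10, 0.50 for TIMM10B, 0.48 for TIMM44, 0.44 for PMPCA, 0.41 for TIMM50, 0.34 for TOMM70, 0.32 for MTX3, 0.31 for TOMM40L, 0.28 for TIMM22, 0.26 for TIMMDC1 and 0.20 for TOMM22, beside 1.28 for TOMM5, 1.2 for CHCHD4, 1.06 for TIMM8A, 0.96 for GRPEL1 and 0.83 for HSPA9. PMPCB differed the other way, at -0.17 (adjusted p = 0.0271), and its call was lost with no filter on low counts (adjusted p = 0.441) and without vehicle RPMI replicate 2 or 3, quizartinib RPMI replicate 1 or vehicle hBMSC-CM replicate 2 or 3 (adjusted p from 0.0528 to 0.104). That of MTX3 was lost without quizartinib RPMI replicate 2 (adjusted p = 0.0553).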

How the results depend on the processing

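Over 21 alternatives none of the 142 called gene differences changed sign where it could be computed. The fits of the compared groups alone covered 116 of them, with no interaction, and these fits, the filter at a mean CPM of at least 5 and leaving out replicate 3 of either hBMSC-CM group lacked the 2 calls of PAM16. Requiring a 1.5-fold change left 6 called import genes in hBMSC-CM (from 25), all lower, beside 9.2% of all tested genes, 0 between media with vehicle (from 12), where 2.27% of all tested genes were higher, 2 for quizartinib hBMSC-CM against vehicle RPMI (from 24), both lower, beside 7.78%, and 12 interactions (from 24), all positive, beside 11.4%. Leaving out 1 library gave 29 to 31 called genes with quizartinib in RPMI, 23 to 26 in hBMSC-CM, 24 to 28 between media with quizartinib, 9 to 14 with vehicle, 21 to 25 for quizartinib hBMSC-CM against vehicle RPMI and 23 to 25 interactions. Scaling by library size only raised the median of all genes to 0.11 in both drug comparisons and the share of higher calls in hBMSC-CM from 49.8% to 62.8% (60.0% with upper quartiles), and for quizartinib hBMSC-CM against vehicle RPMI from 49.2% to 62.1%. Without a filter 70.6% of interactions called were positive, against 57.6%. Of the 62 uncalled gene differences 23 changed sign under some alternative, and examples follow. With no filter on low counts MTX1 in RPMI was -0.058, TIMM29 in RPMI -0.030 and the TIMM17B interaction 0.019. DNAJC19 in RPMI was 0.048 by library size, 0.061 by upper quartiles and 0.0084 at a mean CPM of at least 5. Leaving out 1 library gave -0.0066 to 0.093 for MTX1, -0.064 to 0.011 for DNAJC19 and -0.17 to 0.071 for the TIMM17B interaction. TIMM29 was called higher in RPMI under upper quartiles (log2 0.17), and GFER lower with no filter (-0.24), with the compared groups alone (-0.15), and without quizartinib RPMI replicate 2, vehicle hBMSC-CM replicate 3 or quizartinib hBMSC-CM replicate 2 (adjusted p = 0.0367, 0.0478 and 0.0496). The causes were not tested.

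Replicate numbers did not pair the libraries: same-numbered libraries deviated together with r from -0.227 to 0.0979 in 18 pairs, and 0 of 12 libraries correlated best with its own number. With a replicate block, 30, 25, 27, 12, 23 and 24 import genes were called in the 6 comparisons, and the block lost 1 call (TOMM7 in quizartinib hBMSC-CM against vehicle RPMI, adjusted p = 0.0586) and changed no other call of these genes. TOMM6, DNAJC15, AGK and PAM16 had the fewest reads. Other genes overlap 100% of the exon bases of TOMM6 and 83.1% of those of PAM16, and the part of this in their counts was not tested. Of AGK 2.67% of exon bases are overlapped and of DNAJC15 none.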
